A study of Homo sapiens with 2 samples.

Results

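The nuclear-encoded genes of the mitochondrial respiratory chain were examined in the human glioblastoma (GBM) line SF-539 with and without knockdown of FKBP9. Members were the protein-coding genes whose symbol starts with NDUF, UQCR or ATP5, or with COX followed by a digit from 4 to 8, together with SDHA, SDHB, SDHC, SDHD, CYC1 and CYCS. This rule took 101 of the 58735 genes of the deposited expression table. Of these, 89 fell into 6 groups, mostly of subunits and electron carriers. There were 37 genes for complex I, 4 for complex II, 10 for complex III and 1 for cytochrome c. Complex IV had 19 and complex V 18, which include ATP5IF1, the gene of its inhibitor and of no subunit. The others were 8 assembly factors of complex I and 4 genes that encode no canonical subunit, namely ATP5S (now DMAC2L), ATP5MGL and the readthrough genes ATP5MF-PTCD1 and NDUFC2-KCTD14.

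The respiratory chain sits in the inner mitochondrial membrane. Complex I takes electrons from NADH and complex II from succinate, both pass them through ubiquinone to complex III, cytochrome c carries them to complex IV, where oxygen is reduced, and complex V uses the proton gradient to make ATP. Apart from complex II, each complex joins subunits made from nuclear genes with subunits made inside the mitochondrion, and glioma cells are known to use both glycolysis and this chain for ATP.

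Both cell populations were infected with pGIPZ lentiviruses and selected with puromycin, one with a control shRNA (shControl) and the other with an shRNA against FKBP9, an endoplasmic reticulum protein of the FK506-binding family (shFKBP9). RNA-Seq was performed on 1 library per condition, and whether the stable clones were pooled before RNA extraction is not given in the sources used here. The spread between cultures and between clones is therefore not known, and no test between the conditions was possible. The question put to these genes was whether their mRNA levels differed between the 2 libraries by more than counting error, and how any difference compared with that of the other genes.

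The libraries held 18116873 fragments on genes for shControl and 17158514 for shFKBP9, where a fragment is 1 sequenced pair of ends. FKBP9 itself had 4659 fragments in shControl and 415 in shFKBP9, or 49.8 and 4.68 FPKM (fragments per kilobase of gene, scaled by the fragments of the library), a log2 ratio of -3.38. Of 9 glial markers, 3 reached a mean of 1 FPKM (VIM, SLC1A3 and NES), GFAP had 43 and 29 fragments, and AQP4 had none in either library. All 7 mesenchymal markers reached it, with CHI3L1 at a log2 ratio of 0.96. The labels call the cells epithelial glioma cells, but of 7 epithelial markers 1 reached it (KRT8), as did 0 of 7 blood cell markers.

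Of the 101 members, 87 had a mean of at least 1 FPKM over both libraries. The highest mean levels per length of the gene were those of ATP5F1B at 359 FPKM in shControl and 312 FPKM in shFKBP9, NDUFS5 at 331 and 339 FPKM, and COX8A at 282 and 284 FPKM. NDUFA9, a supernumerary subunit of complex I, was the lowest subunit gene of these, with 1.38 and 1.43 FPKM. The 6 groups together summed to 4568 FPKM for shControl and 4649 for shFKBP9, a log2 ratio of 0.03 with a 95% interval from 0.01 to 0.04, which included 0 when rescaled to TPM (values with the same sum in each library), and they took 0.984% and 0.988% of all fragments on genes. All such intervals were made from fragments and cover counting error only. In bulk RNA of this kind, fewer cells of a type and less RNA per cell cannot be told apart.

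**Figure D1:**
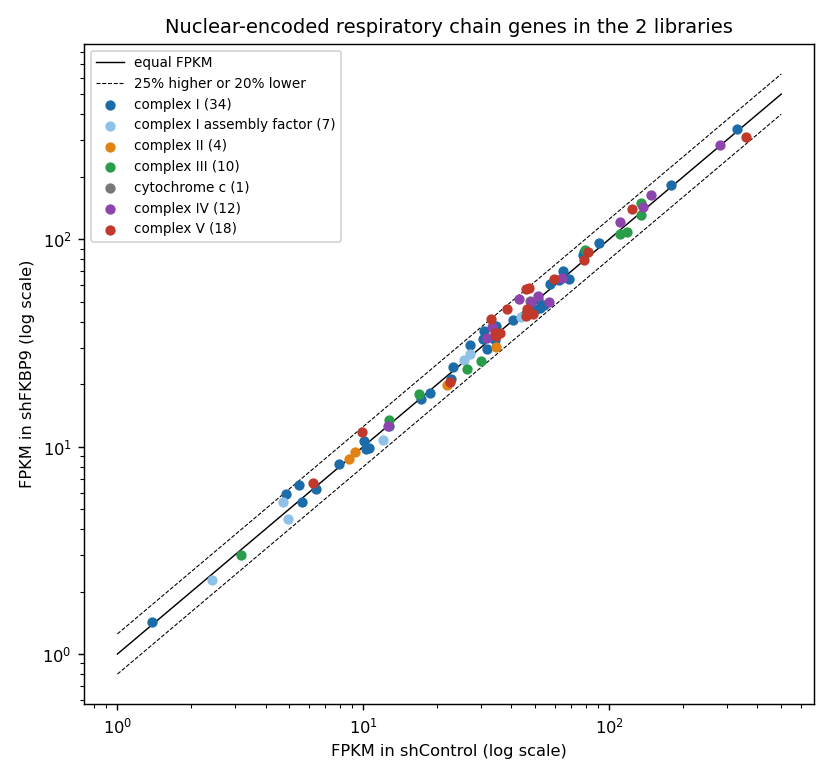
FPKM in the shControl library (x axis, log scale) against FPKM in the shFKBP9 library (y axis, log scale) for the 86 genes of the 6 groups and the complex I assembly factors with a mean of at least 1 FPKM. The solid line marks equal values and the dashed lines a value 25% higher or 20% lower. All of the points lie between the dashed lines, from NDUFA9 at the lower left to NDUFS5, COX8A and ATP5F1B at the upper right.

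The 87 members at 1 FPKM or more differed little between the libraries. Their log2 ratios of shFKBP9 over shControl, with 0.1 added to both FPKM values, had a median of 0.03, quartiles of -0.07 and 0.11, and a range from -0.21 (UQCRFS1) to 0.34 (ATP5S), that is from 0.864-fold to 1.27-fold. Over all 12148 genes past the same minimum the median was -0.02, and over the 10220 protein-coding genes it was also -0.02. None of the 87 passed 2-fold, against 2.12% of all genes and 0.274% of protein-coding genes. A smaller bound was set at a log2 ratio of 0.32 either way, which is 25% higher or 20% lower. ATP5S was the 1 member more than 25% higher, against 8.31% of all genes and 5.56% of protein-coding genes, and 0 members were more than 20% lower, against 9.41% and 6.60%. ATP5S, whose product is a factor related to complex V and no subunit of it, had 185 fragments in shControl and 228 in shFKBP9, or 0.904 and 1.18 FPKM. It thus reached a mean of 1 FPKM only through the library in which it was higher.

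Counting error alone was small for these abundant genes, so differences well inside that bound could be seen. The interval of the log2 ratio had a median half-width of 0.10 and ranged from 0.03 for ATP5F1B, with 27497 fragments in both libraries together, to 0.38 for UQCRHL, with 238. It lay above 0 for 25 of the 87 members and below 0 for 16, and it included 0 for 46. Over all genes the interval lay above 0 for 17.9% and below 0 for 21.0%. Since abundant genes have narrower intervals, the closer background is that of the 4140 protein-coding genes with a mean of at least 10 FPKM, of which 25.1% lay above 0 and 30.3% below. Of the 72 members past that level, 22 lay above 0 and 16 below (30.6% and 22.2%), so that members beyond counting error were no more frequent than among other genes of that abundance. These counts compare 2 libraries and not 2 conditions.

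**Figure D2:**
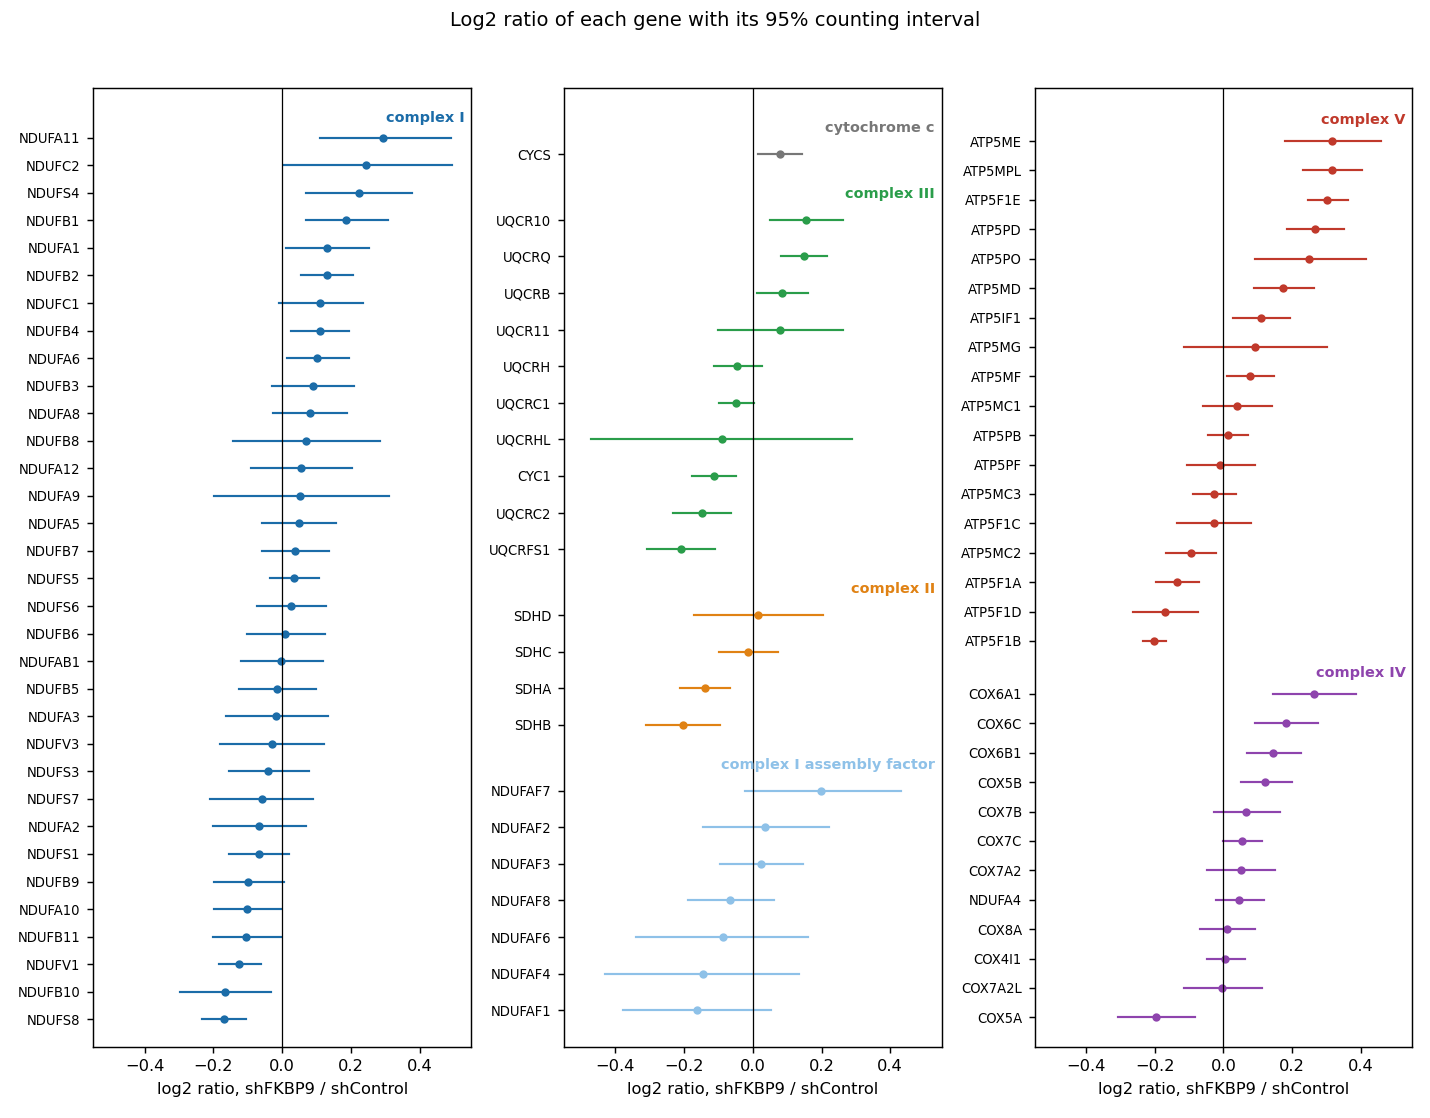
Log2 ratio of shFKBP9 over shControl (x axis) for the same genes apart from 1 that is not reported here, in panels by complex and ordered by ratio within each. Points are the ratios and horizontal bars the 95% intervals from fragments, which cover counting error only. Intervals on both sides of 0 were found in complexes I, III, IV and V, with ATP5ME at 0.32 as the highest subunit gene and UQCRFS1 at -0.21 as the lowest.

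In complex I, which takes electrons from NADH, the 34 genes at 1 FPKM or more had a median log2 ratio of 0.03, with 8 intervals above 0, 6 below and 20 including 0. As in the complexes that follow, these counts stand against 17.9% above and 21.0% below over all genes, and 25.1% and 30.3% over protein-coding genes with at least 10 FPKM. The summed level of the complex was 1608 FPKM in shControl against 1639 in shFKBP9. Its core, the subunits that hold the flavin and the iron-sulfur clusters, was encoded by 7 of the 37 genes, and the 6 of those at 1 FPKM or more, a group made after the values were seen, had a median of -0.08, with 3 intervals below 0 and 3 including 0. Among them NDUFS8, an iron-sulfur subunit, had 4432 fragments in shControl and 3734 in shFKBP9, or 54.1 and 48.1 FPKM, and a log2 ratio of -0.17 (95% interval -0.23 to -0.11). NDUFV1, the flavin-binding subunit, had 50.4 and 46.2 FPKM, a log2 ratio of -0.12. The intervals of NDUFS1, NDUFS3 and NDUFS7 included 0.

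The supernumerary subunits of complex I surround this core. Of 30 such genes 28 had at least 1 FPKM, and their log2 ratios had a median of 0.05, with 8 intervals above 0 and 3 below. Several of these intervals ended within 0.02 of 0, such as those of NDUFA1 (from 0.010), NDUFA6 (from 0.014) and NDUFB11 (to -0.004). The counts therefore change with the scaling of the libraries. NDUFA11 had the highest ratio, with 423 fragments in shControl and 493 in shFKBP9, or 4.83 and 5.93 FPKM, a log2 ratio of 0.29 (95% interval 0.11 to 0.49). NDUFC2 followed at 5.48 and 6.50 FPKM, a log2 ratio of 0.24, and NDUFS4 at 30.8 and 36.0 FPKM, a log2 ratio of 0.22. The lowest was NDUFB10 at 52.1 and 46.4 FPKM, a log2 ratio of -0.17. By fragments NDUFV1 and NDUFS8 were the highest of the complex, with 8627 and 8166 in both libraries together, and both intervals lay below 0. The 3 genes with the highest FPKM per length of the gene barely differed. NDUFS5 (ENSG00000168653, chr1:39026318-39034636 in hg38) had 331 and 339 FPKM, NDUFB7 179 and 183 FPKM, and NDUFA8 90.8 and 95.9 FPKM, and the intervals of all 3 included 0.

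The complex I assembly factors, which help to build the complex and leave it again, had 7 of 8 genes at 1 FPKM or more. All 7 intervals included 0, and the median log2 ratio was -0.07. NDUFAF8 was the most abundant of them, at 43.9 FPKM in shControl and 41.9 FPKM in shFKBP9, followed by NDUFAF2 at 27.2 and 27.9 FPKM and NDUFAF3 at 25.7 and 26.1 FPKM. NDUFAF7, a methyltransferase, had 310 and 338 fragments and a log2 ratio of 0.20, while NDUFAF1 had 390 and 330 fragments and a log2 ratio of -0.16, and NDUFAF4 228 and 195 fragments and a log2 ratio of -0.15. At these counts, differences of that size were not detectable.

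Complex II, or succinate dehydrogenase, is also an enzyme of the tricarboxylic acid cycle and has no subunit from mitochondrial DNA. Its summed level was 74.5 FPKM in shControl and 67.9 FPKM in shFKBP9, a log2 ratio of -0.13 (95% interval -0.19 to -0.07). SDHB, the iron-sulfur subunit (ENSG00000117118, chr1:17018722-17054170), had 1543 and 1270 fragments, or 34.6 and 30.0 FPKM, a log2 ratio of -0.20. SDHA, the flavoprotein, had 3320 and 2855 fragments, or 21.9 and 19.8 FPKM, a log2 ratio of -0.14. The membrane anchors SDHC and SDHD gave log2 ratios of -0.01 and 0.01, with 2244 and 2107 fragments for SDHC and 477 and 457 for SDHD. Both catalytic genes were therefore lower in the shFKBP9 library beyond counting error, and both intervals of the anchors included 0. SDHA has 3 pseudogenes of its name in the table, which held 14.3% of the fragments of the gene and its copies, and the log2 ratio of SDHA kept its sign when they were added.

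In complex III, which passes electrons from ubiquinol to cytochrome c, the 10 genes had a median log2 ratio of -0.05, with 3 intervals above 0, 3 below and 4 including 0. UQCRFS1, the Rieske iron-sulfur protein, had 1892 fragments in shControl and 1550 in shFKBP9, or 30.1 and 26.0 FPKM, a log2 ratio of -0.21 (95% interval -0.31 to -0.11). CYC1, or cytochrome c1, had 118 and 109 FPKM, a log2 ratio of -0.11. UQCRC2, a core protein, had 26.3 and 23.7 FPKM, a log2 ratio of -0.15, and its partner UQCRC1 a log2 ratio of -0.05. The 5 small subunits had a median of 0.08, with 3 intervals above 0 and 2 including 0, and UQCRH among them had a ratio below 0. UQCRQ had 134 and 149 FPKM, a log2 ratio of 0.15, and UQCR10 had 80.0 and 89.0 FPKM, also 0.15. UQCRH, the hinge protein, had 135 and 131 FPKM with an interval that included 0, and its intronless paralog UQCRHL had 126 and 112 fragments. Fragments of this pair may have been split by the authors' counting. The summed level of the complex was 666 FPKM in shControl and 668 in shFKBP9. CYCS, the gene of cytochrome c, had 3839 and 3842 fragments, or 47.6 and 50.2 FPKM, a log2 ratio of 0.08 (95% interval 0.01 to 0.14).

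Complex IV, or cytochrome c oxidase, has a catalytic core from mitochondrial DNA, so that all of its nuclear genes encode subunits around that core. The 12 genes at 1 FPKM or more had a median log2 ratio of 0.05, with 4 intervals above 0 and 1 below, and the sum was 1021 FPKM in shControl and 1065 FPKM in shFKBP9, a log2 ratio of 0.06 (95% interval 0.03 to 0.09). COX6A1 had 42.9 and 51.6 FPKM, a log2 ratio of 0.26 (95% interval 0.14 to 0.39). COX6C had 33.4 and 37.9 FPKM, a log2 ratio of 0.18, COX6B1 148 and 163 FPKM, a log2 ratio of 0.14, and COX5B 111 and 121 FPKM, a log2 ratio of 0.12. COX5A was the exception, with 56.9 and 49.7 FPKM and a log2 ratio of -0.20. COX8A, COX7C and COX4I1 differed by less than counting error, at 282 and 284, 137 and 143, and 64.5 and 64.7 FPKM.

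Several subunits of complex IV exist in forms of different tissues, and here the ubiquitous form made up nearly all of the fragments. The ubiquitous COX4I1 had 5595 and 5324 fragments, whereas COX4I2, known from lung, had 0 in both. COX6A2 and COX7A1 are the forms of heart and skeletal muscle. COX6A2 had 0 in both libraries, against 1045 and 1190 for COX6A1, and COX7A1 had 4 in shControl and 16 in shFKBP9, against 1679 and 1648 for COX7A2 and 1282 and 1213 for COX7A2L. COX6B2, COX7B2 and COX8C are testis forms, of which COX6B2 had 1 and 3 fragments and the others 0. COX7B had 1735 and 1723 fragments. NDUFA4, once placed in complex I and now counted in complex IV, had 3311 and 3241, and its paralog NDUFA4L2, a known hypoxia-induced gene, had 21 and 27. A count of 0 allows up to 3 fragments, which on a gene of 1 kilobase is 0.166 FPKM in shControl and 0.175 FPKM in shFKBP9.

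Complex V, the ATP synthase, had 18 genes, all at 1 FPKM or more, whose log2 ratios ran from -0.20 to 0.32, with a median of 0.06, 8 intervals above 0, 4 below and 6 including 0. ATP5F1B (ENSG00000110955, chr12:56638175-56646068, 10 exons), the catalytic beta subunit and the most abundant member by fragments, had 15074 fragments in shControl and 12423 in shFKBP9, a log2 ratio of -0.20 (95% interval -0.24 to -0.17). ATP5F1A, the alpha subunit, had 22.5 and 20.5 FPKM, a log2 ratio of -0.13. ATP5F1D, of the central stalk, had 48.9 and 43.5 FPKM, a log2 ratio of -0.17. ATP5F1C, the gamma subunit, was at 34.6 and 33.9 FPKM with an interval that included 0. ATP5F1E, the epsilon subunit, differed from these 4 and had 4364 and 5102 fragments, or 47.0 and 58.0 FPKM, a log2 ratio of 0.30 (95% interval 0.25 to 0.36).

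Of the 5 supernumerary subunits in the membrane part of complex V, a group made after the values were seen, 4 had intervals above 0, and their median was 0.17. Among other protein-coding genes of at most 300 coding bases, 43.1% of intervals lay above 0, and 52.8% among those with at least 10 FPKM, against 17.9% of all genes. ATP5ME, subunit e, had 782 and 924 fragments, or 45.9 and 57.3 FPKM, a log2 ratio of 0.32. ATP5MPL, a small proteolipid, had 2036 and 2403 fragments, a log2 ratio of 0.31, and ATP5MD, also known as DAPIT, had 2069 and 2214 fragments, a log2 ratio of 0.17. ATP5MF, subunit f, had 81.9 and 86.4 FPKM, a log2 ratio of 0.08, and ATP5MG, subunit g, had 383 and 387 fragments, with an interval that included 0. The peripheral stalk had a median of 0.13 over 4 genes, from ATP5PD at 38.4 and 46.2 FPKM, a log2 ratio of 0.27, to ATP5PF at -0.01. The 3 genes of the c ring, ATP5MC1, ATP5MC2 and ATP5MC3, encode the same mature peptide and gave log2 ratios of 0.04, -0.10 and -0.03, with ATP5MC2 the most abundant by FPKM, at 45.7 and 42.7. ATP5IF1, the inhibitor of the enzyme, is counted with the genes of the complex and had a log2 ratio of 0.11, with an interval above 0. The summed level of the complex was 1151 FPKM in shControl and 1159 FPKM in shFKBP9.

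**Figure D3:**
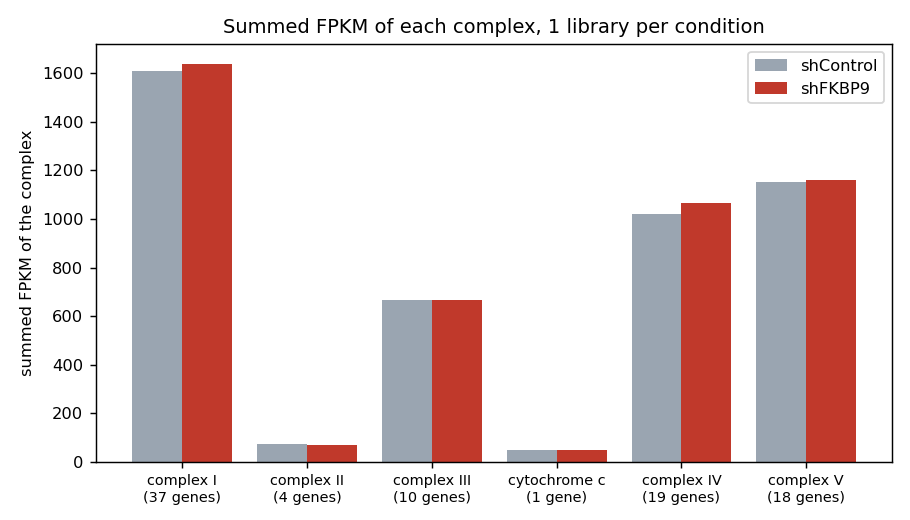
Summed FPKM (y axis, from 0) of the nuclear-encoded genes of each complex in the shControl library (grey bars) and the shFKBP9 library (red bars), with the number of genes under each pair. There is 1 library per condition and no error bar between cultures. Complex I summed to 1608 and 1639 FPKM, complex IV to 1021 and 1065, and complex II to 74.5 and 67.9.

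When FPKM were recomputed as TPM, the summed log2 ratio of all 6 groups moved from 0.03 to 0.01, with an interval from -0.01 to 0.02. The summed log2 ratio of complex III moved from 0.00 to -0.02 and that of complex V from 0.01 to -0.01, while those of complexes I and IV, cytochrome c and complex II kept their signs at 0.01, 0.04, 0.06 and -0.15. The intervals of complex I and cytochrome c then included 0, and those of complexes II and IV did not. With the median ratio of expressed genes set to 1, all 6 kept their signs. The sums of complexes III and V thus had no direction that held under each scaling, and those of complex I, cytochrome c and all 6 groups lay beyond counting error as deposited but not as TPM.

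Members with short coding sequences tended to have the higher ratios. The 24 members with at most 300 coding bases had a median log2 ratio of 0.08, with 11 intervals above 0 and 0 below. The 40 members of 301 to 600 bases had a median of 0.04, with 13 above and 5 below. The 13 members of 601 to 1200 bases had a median of -0.09, with 1 above and 5 below, and the 10 longer ones had a median of -0.11, with 0 above and 6 below. Over the 87 members, Spearman's rho between the log2 ratio and coding length was -0.56, and Pearson's r with the log2 of the length was -0.53. This is a description across genes that share the same 2 libraries, and genes are not independent replicates.

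Other protein-coding genes showed the same order by coding length. The 204 others of at most 300 bases had a median log2 ratio of 0.10, with 43.1% of intervals above 0 and 8.82% below. Those of 301 to 600 bases (1114 genes) had a median of 0.03, with 24.0% above and 12.3% below. Those of 601 to 1200 bases (2911 genes) had a median of -0.01, with 19.0% above and 19.3% below. The 5866 longer ones had a median of -0.04, with 18.8% above and 28.7% below. At a mean of at least 10 FPKM, the closer background for these abundant members, 52.8% of intervals of the shortest class lay above 0 and 41.8% of those of the longest class below. Spearman's rho over 10095 other genes was -0.13. The catalytic and core genes named above, such as SDHA, SDHB, UQCRFS1, NDUFS8 and ATP5F1B, are among the longer members, and the small subunits of complexes III and V among the shorter ones, so role and coding length cannot be told apart in this set. Whether length, RNA quality or library preparation had a part in these ratios was not tested.

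**Figure D4:**
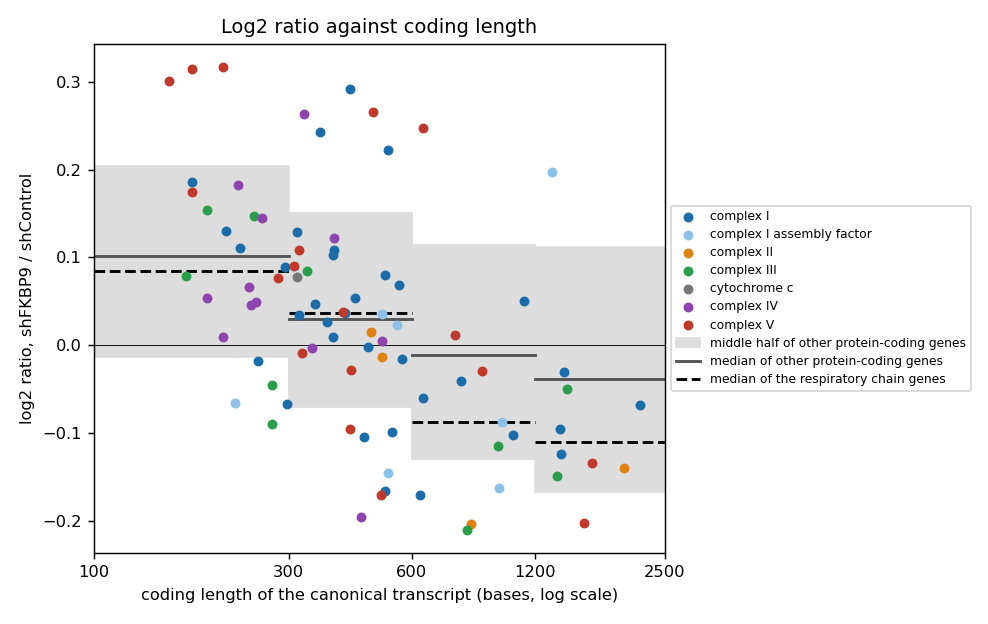
Log2 ratio of shFKBP9 over shControl (y axis) against coding length in bases (x axis, log scale), with 1 point per gene for the same 86 genes, coloured by complex. Grey bands span the middle 50% of other protein-coding genes in each length class, grey lines their medians, and dashed lines the medians of the 87 members, which run from 0.08 in the shortest class to -0.11 in the longest.

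The promoters of these genes were examined for binding motifs of regulators known to act on nuclear genes for mitochondria. RefSeq promoters (GRCh38.p14, 250 bases before to 50 after the start) were found for 81 of the 101 members. The letters GCGCANGCG on either strand, the core of the NRF1 motif, were present in 24 of 81 (29.6%), against 8.05% of all 27305 promoters and 18.2% of those of 3460 protein-coding genes with at least 10 FPKM. The YY1 letters AAGATGGCG were present in 8 (9.88%), against 1.85% and 4.71%, and the ETS letters ACCGGAAG, the site of GABPA and its relatives, in 5 (6.17%), against 2.32% and 5.66%. Matches of the same motif may overlap, and each promoter was counted once. A match describes the letters and does not show binding.

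The 250 bases before the start are shown for the highest and the lowest subunit gene that hold the NRF1 letters, 5′ to 3′ on the strand of the gene (minus for both), with the matches in capitals. The start is that of RefSeq and not of the expression table. For ATP5ME the bases are chr4:674277-674526, with matches whose first bases lie 219, 173 and 78 bases before the start. For UQCRFS1 they are chr19:29213152-29213401, with 1 match 30 bases before it.
ATP5ME: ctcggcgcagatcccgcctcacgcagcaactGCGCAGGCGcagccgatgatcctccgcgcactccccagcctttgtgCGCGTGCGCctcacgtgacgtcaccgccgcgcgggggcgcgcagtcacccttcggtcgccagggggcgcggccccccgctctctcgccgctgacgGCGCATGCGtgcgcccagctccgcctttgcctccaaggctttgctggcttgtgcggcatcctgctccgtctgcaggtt
UQCRFS1: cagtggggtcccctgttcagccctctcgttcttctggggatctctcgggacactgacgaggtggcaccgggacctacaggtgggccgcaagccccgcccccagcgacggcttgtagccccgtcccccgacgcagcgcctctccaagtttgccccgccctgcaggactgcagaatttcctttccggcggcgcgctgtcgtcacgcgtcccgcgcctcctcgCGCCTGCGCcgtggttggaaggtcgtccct
Both genes hold the letters, while ATP5ME had a log2 ratio of 0.32 and UQCRFS1 of -0.21. Over members at 1 FPKM or more, the median log2 ratio was 0.04 for the 22 with the NRF1 letters and 0.04 for the 49 without. For the YY1 letters it was -0.01 for 7 members and 0.04 for the 64 without.

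Of the 14 members under 1 FPKM, 5 had no fragment in either library (COX4I2, COX6A2, COX7B2, COX8C and NDUFC2-KCTD14) and 3 had at most 3 (COX6B2, ATP5MGL with 0 and 3, and ATP5MF-PTCD1 with 0 and 2). NDUFAF5, a hydroxylase that modifies a core subunit of complex I, had 103 fragments in shControl and 74 in shFKBP9. NDUFV2, NDUFA7 and NDUFA13 stood out as the only subunit genes of complex I under 1 FPKM. NDUFV2, an iron-sulfur core subunit (ENSG00000178127, chr18:9102630-9134345), had 40 and 24 fragments, NDUFA13, also known as GRIM-19, had 39 and 32, and NDUFA7 had 11 and 14.

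Those 3 genes were also the only subunit genes, outside the tissue forms and paralogs, that share more than 75% of their canonical transcript with exons of other genes in the table. The share was 90.0% for NDUFV2, with the lncRNA gene AP005263.1, 83.9% for NDUFA13, with AC011448.1, and 77.9% for NDUFA7, with AC010323.1 and, on the opposite strand, RPS28. The overlapping gene on the same strand held few fragments itself, with 0 and 0 for AP005263.1, 6 and 9 for AC011448.1, and 1 and 3 for AC010323.1. Levels of the 3 genes per length of the canonical transcript (canonical FPKM, mean of both libraries) lay between 1.23 and 3.86, against medians of 75.8 for the 10 subunit genes that share 25 to 75% and of 98.0 for the 68 that share up to 25%. NDUFB8, NDUFA11 and ATP5PO share 72.0%, 68.2% and 63.8% of their transcript, and the largest overlapping gene of each had 0 fragments in both libraries. By default featureCounts leaves out fragments that fall on several genes, and the setting used is not given in the sources used here. The values of NDUFV2, NDUFA13 and NDUFA7 are therefore uncertain, and whether the overlap set them was not tested. The log2 ratios differed between the other classes as well. The 10 genes that share 25 to 75% had a median of 0.16, with 6 intervals above 0 and 0 below. The 68 that share up to 25% had a median of 0.02, with 18 above and 16 below. Over all genes 17.9% of intervals lay above 0 and 21.0% below. The 6 genes above 0 in the class of 25 to 75% were ATP5ME, ATP5F1E, NDUFA11, COX6A1, ATP5PO and ATP5MF. Some of the highest ratios given above are thus of genes with such an overlap. Among the 6, ATP5ME, ATP5F1E and ATP5MF also have at most 300 coding bases. ATP5S, which is in none of these classes, shares 57.5% of its transcript with CDKL1 on the opposite strand. The values of these 6 genes and of ATP5S are uncertain for the same reason, and the part of the overlap in their ratios was not tested. The pseudogene of NDUFV2 had 48 and 47 fragments, more than the gene.

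The order of levels also depends on the length used, since the table divides by the length of all exons of a gene. Per length of the canonical transcript COX7C (canonical FPKM of 443) and ATP5F1B (442) were the highest, and the highest of complexes I and III were NDUFS5 (370.4) and UQCRH (348). The ratio of a single gene between the libraries does not change with the length, but that of a sum does, since the length sets the weight of each gene. With canonical lengths, chosen after the values were seen, the summed log2 ratio of complex III was -0.03 and that of complex V 0.05, against 0.00 and 0.01 as deposited, and those of complexes I, II and IV were 0.02, -0.10 and 0.07.

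The partner genes of the chain also differed little between the libraries. Their counts can be read against all genes, of which 17.9% of intervals lay above 0 and 21.0% below, 8.31% were more than 25% higher and 9.41% more than 20% lower. The 13 subunit genes of mitochondrial DNA summed to 21295 FPKM for shControl and 21542 for shFKBP9, with a median log2 ratio of 0.04, 7 intervals above 0, 3 below, and none past the bound of 25% higher or 20% lower. MT-CO1, the catalytic subunit of complex IV, had 3858 and 3978 FPKM. MT-ND3 had a log2 ratio of 0.17 and MT-ND4L, with 10240 and 8127 fragments, one of -0.26. Of 44 assembly factors outside the name rule, 39 had at least 1 FPKM, with a median of 0.04, 4 intervals above 0 and 9 below. COX10, which makes heme O for complex IV, was more than 20% lower with 469 and 352 fragments, and NUBPL, which delivers iron-sulfur clusters to complex I, more than 25% higher with 181 and 218. TIMMDC1 was the most abundant of them, at 40.4 and 39.1 FPKM.

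The 18 genes of the tricarboxylic acid cycle and the pyruvate dehydrogenase had a median log2 ratio of -0.06, with 2 intervals above 0 and 6 below, against the same 17.9% and 21.0%, and none past that bound. Among them OGDH had 38.2 and 32.7 FPKM, a log2 ratio of -0.22, SUCLG2 20.6 and 23.7 FPKM, a log2 ratio of 0.20, and MDH2, the most abundant, 53.5 and 51.0 FPKM. Of 21 genes for ubiquinone synthesis and other entries of electrons, 19 had at least 1 FPKM, with a median of 0.00, 4 above and 4 below. DHODH, which feeds electrons from pyrimidine synthesis into ubiquinone, had 342 and 246 fragments, a log2 ratio of -0.38, COQ7 440 and 330 fragments, a log2 ratio of -0.33, and PDSS1 92 and 115 fragments, a log2 ratio of 0.39 with an interval that included 0. These 3 were the ones past the bound. ETFA was the most abundant, at 16.3 and 15.3 FPKM.

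Of 16 regulators of mitochondrial biogenesis, 13 had at least 1 FPKM, with a median log2 ratio of -0.05, 3 intervals above 0 and 5 below, against 17.9% and 21.0% of all genes. YY1, the factor whose letters were searched above, had 3983 fragments in shControl and 2691 in shFKBP9, or 25.2 and 18.0 FPKM, a log2 ratio of -0.49 (95% interval -0.56 to -0.42). POLG, the mitochondrial DNA polymerase, had 13.9 and 11.1 FPKM, a log2 ratio of -0.32, and these 2 of 13 were the ones more than 20% lower, against 9.41% of all genes. POLRMT, the mitochondrial RNA polymerase, was the most abundant, at 28.3 and 24.6 FPKM. TFAM, which packages and transcribes mitochondrial DNA, had 6.63 and 7.73 FPKM, a log2 ratio of 0.22, and GABPB1 a log2 ratio of 0.27. Under 1 FPKM, PPARGC1A, or PGC-1alpha, had 51 and 52 fragments, and PPARGC1B 155 and 77.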

How the data were processed

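RNA was extracted from SF-539 cells and sequenced in 1 library per condition. According to the methods and the submitters' processing notes, reads with adapters, undetermined bases or low quality were removed, paired ends were aligned to hg38 with HISAT2 (2.0.5), counted per gene with featureCounts (1.5.0-p3), and edgeR was used for the study's own comparison. The authors deposited FPKM per gene with gene length, position and biotype. The annotation release, strand setting and treatment of overlapping genes are not given in the sources used here. The table held 0 other columns of values per library.

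From the deposited FPKM, fragments were recovered as FPKM times length over the value of 1 fragment. All values (100%, tolerance 0.01) were whole, and 1 fragment per kilobase is 0.0552 FPKM in shControl and 0.0582 FPKM in shFKBP9. This scaling and the total of fragments on genes differ by less than the rounding of the log2 ratios. Log2 ratios were taken with 0.1 added, which understates the change of low genes. For each gene the exact Clopper-Pearson interval of its fragments at 95% was turned into log2 ratios without that addition. The interval of a summed FPKM was made from Poisson errors of the fragments. Fragments are not independent molecules, so intervals cover counting error only. The recovery and the intervals were tested on simulated fragments with Poisson error alone, which could not show whether the intervals hold for a wider spread. Coding length, canonical transcripts and overlaps came from GENCODE release 44, matched by Ensembl identifier. All 101 members overlapped their GENCODE span on the same chromosome, and 38 had identical ends. Coordinates are those of the table. Calculations were run in Python 3.11.15 with pandas 2.3.3 (on numpy 2.4.6) and scipy 1.17.1, and plots were drawn with matplotlib 3.10.9.

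The members and lists were chosen with earlier results of these data known. The genes named were FKBP9 and, in each complex, the 3 most abundant members, the 2 highest and 2 lowest ratios, members past 25% higher or 20% lower, all of complex II, CYC1, CYCS, tissue forms and paralogs, and members with at most 3 fragments. In the other lists they were the most abundant gene and the extreme ratios. Other genes named, the groups by role, the classes of coding length, the overlaps, the motifs and the promoters shown were chosen after the values were seen. Some genes are not reported here by name. Alternatives were another addition to FPKM, another scaling, other minimums, sums with pseudogenes, subunits alone and a 99% interval. Sums by canonical length were added after the data were seen.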

Additional observations from a re-analysis of the deposited data

How the results depend on the processing

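No paired analysis was possible because each condition had 1 library, and for the same reason no replicate could be left out. Over 10 alternatives, 7 of 590 log2 ratios and medians changed sign, none of them with an interval that had excluded 0 and none larger than 0.02 in size. Many of the 590 could not change sign. Other minimums, subunits alone and a 99% interval leave the ratio of a gene as it was, and another addition to FPKM keeps its sign. The scalings could turn only values within about 0.02 of 0, so the count of 7 says little about stability. With TPM these were the sums of complexes III and V, SDHD, COX4I1 and COX8A, and with median ratio scaling SDHC and COX7A2L. Single intervals were followed for 46 genes only, and other members changed as well, as the counts below show. Among the 46, the intervals of CYCS, ATP5MF and NDUFC2 included 0 with TPM and at 99%, as did those of ATP5MC2 and NDUFB10 at 99%. That of COX7C excluded 0 with median ratio scaling, as did the sum of complex V. With sums by canonical length, chosen after seeing the data and not among those 10, complex III moved to -0.027 and changed sign, and complex V moved to 0.054. Counts of members also moved. Past 25% higher or 20% lower there was 1 member (ATP5S), but 0 with 1 added to FPKM, 3 when the median ratio was set to 1, 9 with no minimum, 0 at a mean of at least 10 FPKM and 0 with subunits only. Past 2-fold there were 0, but 2 with no minimum (COX7A1 and ATP5MGL, with at most 16 fragments each in a library). The median ratio scaling shifted all log2 ratios by 0.02 and TPM by -0.02, so that 27 intervals lay above 0 and 13 below with the former, and 19 above and 18 below with TPM, against 25 and 16. At 99% they were 18 and 11. Members between 238 and 27497 fragments could show differences down to log2 ratios of about 0.38 and 0.03, and a difference between the cultures could not be separated from one between the libraries.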

Other observations

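The log2 ratio was also set against GC content of the canonical transcript, a property that the comparison of complexes did not use. Over 10117 other protein-coding genes with a mean of at least 1 FPKM, Spearman's rho was -0.46, so that GC-rich transcripts tended to have lower ratios in the shFKBP9 library. Over the 87 respiratory chain genes it was -0.22, and their rho with coding length was -0.56, whereas over other genes that with coding length was -0.13. For the 72 respiratory chain genes with at least 10 FPKM, rho was -0.26 with GC content and -0.65 with coding length, against -0.44 and -0.24 over other protein-coding genes at that level. For those 72 genes rho with mean FPKM was 0.18. These values describe genes that share the same 2 libraries, and their part in the ratios of single genes was not tested.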
